A study of Homo sapiens with 12 samples.

Results

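The genes described here are the regulators that set how much mitochondrial machinery a cell makes: the PGC1 coactivators PPARGC1A, PPARGC1B and PPRC1, the nuclear receptor gene ESRRA, the transcription factor genes NRF1 and YY1, and TFAM. They were taken by gene symbol, and each of the 7 matched 1 row among the 58307 named rows of the gene count table. RNA of A375 and SK-MEL-28, 2 established lines of human melanoma, was sequenced from polyA-selected libraries, 12 in all. Each line gave 3 libraries treated with etoposide and 3 treated with etoposide + rapamycin, which makes 4 groups. Etoposide poisons topoisomerase II, and all 4 groups received it, so a difference within a line is that of rapamycin, an inhibitor of mTOR complex 1 and inducer of autophagy, added to etoposide. The study asked how inducing autophagy sensitizes melanoma cells to the drug. Doses and times are not given for these libraries in the sources used here, and the 12 libraries include none without etoposide or with rapamycin alone.

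PGC1 proteins do not bind DNA themselves. They dock on transcription factors such as ERRα (the ESRRA product), NRF1, GABP, PPARs and YY1, and recruit the machinery that opens chromatin and starts transcription of nuclear genes for respiratory chain subunits, the tricarboxylic acid cycle and protein import. One of the genes switched on in this way is TFAM, whose product enters mitochondria, coats mitochondrial DNA and drives its transcription, so that nuclear and mitochondrial genomes are expressed together. In melanoma, PPARGC1A is known as a target of the melanocyte factor MITF. In muscle, mTOR complex 1 is known to act on mitochondrial genes through a complex of YY1 and PGC1α.

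The libraries held 28189501 to 32499337 counts in named genes. SOX10, a neural crest and melanocyte factor, ranged from 165.7 to 579.1 CPM (counts of a gene relative to its library, with TMM scaling), with its 3 libraries overlapping between treatments in both lines. In A375, S100B was lower with rapamycin (79.1 to 94.2 against 56.8 to 59.7 CPM). Its SK-MEL-28 libraries overlapped (93.75 to 106.5 against 79.9 to 98.6 CPM). MITF was lower in both lines without overlap. The 7 melanocyte markers summed to 480 to 597 against 399.2 to 655 CPM in A375, which overlapped. In SK-MEL-28 the sums were 423.3 to 548.7 against 292.5 to 524.6 CPM, also with overlap. The pigment genes were nearly silent in both lines: MLANA reached at most 1.37 CPM, PMEL 2.99, DCT 2.16 and TYR 0.197. At these low levels DCT was lower with rapamycin in A375, MLANA was lower in SK-MEL-28 and PMEL was higher there, each without overlap. The nearest PMEL libraries of the treatments almost touched, at 2.036 and 2.037 CPM. Of all genes tested, 42.6% showed no overlap in A375 and 35.9% in SK-MEL-28. Summed leukocyte markers reached at most 0.820 CPM and summed fibroblast markers 8.61. The epithelial markers came to 48.7 to 111 CPM, almost all of it KRT8, while EPCAM and CDH1 stayed at or under 0.572 CPM. Endothelial markers came to 3.49 to 9.37 CPM. Summed fibroblast markers were lower with rapamycin in both lines (6.50 to 8.61 against 3.97 to 5.54 CPM in A375, and 3.24 to 3.74 against 1.45 to 2.54 CPM in SK-MEL-28), and so were the summed endothelial markers (6.70 to 9.37 against 5.84 to 6.60 CPM, without overlap, in A375 and 4.70 to 5.98 against 3.49 to 3.97 CPM in SK-MEL-28). Summed epithelial markers were higher with rapamycin in A375 (48.7 to 50.2 against 52.5 to 55.1 CPM) and lower in SK-MEL-28 (103.6 to 111 against 90.7 to 94.5 CPM), and summed leukocyte markers were lower in SK-MEL-28 (0.458 to 0.820 against 0.0968 to 0.286 CPM). Their part in the results was not tested. In bulk RNA of these cultured lines, fewer cells expressing a marker and less of its RNA per cell cannot be told apart.

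Positions of the genes are from GENCODE release 44 (GRCh38), and lengths and exon counts are those of the MANE Select transcript. PPARGC1A lies on the minus strand of chr4:23755041-23904089 (13 exons), and PPARGC1B on the plus strand of chr5:149730298-149855022 (12 exons), where it hosts the microRNA gene MIR378A. PPRC1 lies at chr10:102132994-102150333 (14 exons) and TFAM at chr10:58385345-58399220 (7 exons), both on the plus strand. ESRRA spans chr11:64305497-64316743 (7 exons, plus strand) and overlaps TRMT112 on the opposite strand. NRF1 spans chr7:129611720-129757082 (11 exons) and YY1 chr14:100238298-100282788 (5 exons), both on the plus strand. Counts at processed copies were close to absent: TFAMP1 held at most 5 counts in a library, YY1P1 at most 3 and YY1P2 0.

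The promoters below are shown because their genes, PPRC1 and ESRRA, are the members that rose most in A375 and because each holds a recognition motif of another member. Both are RefSeq windows (GRCh38.p14) of 300 bases, from 250 before to 50 after the start on which the window is set. In both genes that start lies downstream of the first base of the span given above. Distances of the motifs are counted from the start of the window's setting, not from the span. Capitals mark the motif. The ESRRA window is on the plus strand of chr11:64305274-64305573, and its capitals are an NRF1 motif that begins 29 bases before the start. The PPRC1 window is on the plus strand of chr10:102132790-102133089, and its capitals are a YY1 motif that begins 26 bases after the start.
ESRRA: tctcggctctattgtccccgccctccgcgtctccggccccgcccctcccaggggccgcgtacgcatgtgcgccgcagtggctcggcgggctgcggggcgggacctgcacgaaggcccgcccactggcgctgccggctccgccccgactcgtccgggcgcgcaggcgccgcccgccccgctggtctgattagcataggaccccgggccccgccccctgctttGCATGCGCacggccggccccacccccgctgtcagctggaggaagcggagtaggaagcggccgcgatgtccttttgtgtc
PPRC1: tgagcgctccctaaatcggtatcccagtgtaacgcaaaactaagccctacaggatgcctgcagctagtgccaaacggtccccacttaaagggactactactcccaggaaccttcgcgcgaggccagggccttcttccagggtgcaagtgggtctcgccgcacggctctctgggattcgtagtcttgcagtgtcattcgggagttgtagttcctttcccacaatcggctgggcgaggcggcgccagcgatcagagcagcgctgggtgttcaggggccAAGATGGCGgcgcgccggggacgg
The ESRRA window is 75% G and C and the PPRC1 window 61%. The NRF1 motif (GCATGCGC) was found on either strand in 3.05% of 35116 promoters, and the YY1 motif (AAGATGGCG) in 1.75%. A window was found for 6 of the 7 members, 7 windows in all with 2 for PPARGC1A; none was found for NRF1. The E-box CACGTG, a motif that MITF and other factors bind, was in 1 of the 2 PPARGC1A windows, the one at chr4:24472856-24473155, and in 7.26% of all promoters. That window lies outside and upstream of the PPARGC1A span given above. The other PPARGC1A window, chr4:23881052-23881351, lies inside the span. The ERR motif (TCAAGGTCA, in 0.353% of promoters) and the GABP motif (CCGGAAG, in 10.3%) were in none of the members' windows. The windows of PPARGC1B (chr5:149771690-149771989) and YY1 (chr14:100238894-100239193) lie inside the spans given above for these genes. Which gene starts were used in these cells was not tested. A motif match describes the letters and is not evidence of binding.

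Per length, the 3 coactivators differed far more from each other than any of them did between groups. PPRC1, the serum-inducible coactivator also called PRC, supplied 88.3% to 93.8% of the summed coactivator CPM per kilobase across the 12 libraries. PPARGC1B supplied 5.43% to 9.61% and PPARGC1A 0.621% to 2.09%. In A375 with etoposide the mean level of PPRC1 per kilobase was 48.5 times that of PPARGC1A, and it was 127 times in the SK-MEL-28 libraries given both drugs.

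All 7 members kept one order of levels per kilobase in each of the 4 groups: ESRRA, YY1, PPRC1, TFAM, NRF1, PPARGC1B and PPARGC1A. In no group did the libraries of neighbours in that order overlap. In A375 with etoposide the mean levels were 36.9 CPM per kilobase for ESRRA, 16.6 for YY1, 12.5 for PPRC1, 6.89 for TFAM, 3.62 for NRF1, 1.20 for PPARGC1B and 0.258 for PPARGC1A. In SK-MEL-28 with etoposide the ends of the order stood at 35.4 and 0.164. The closest neighbours were YY1 and PPRC1, whose mean levels per kilobase differed 1.23 to 1.33-fold within a group.

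**Figure D1:**
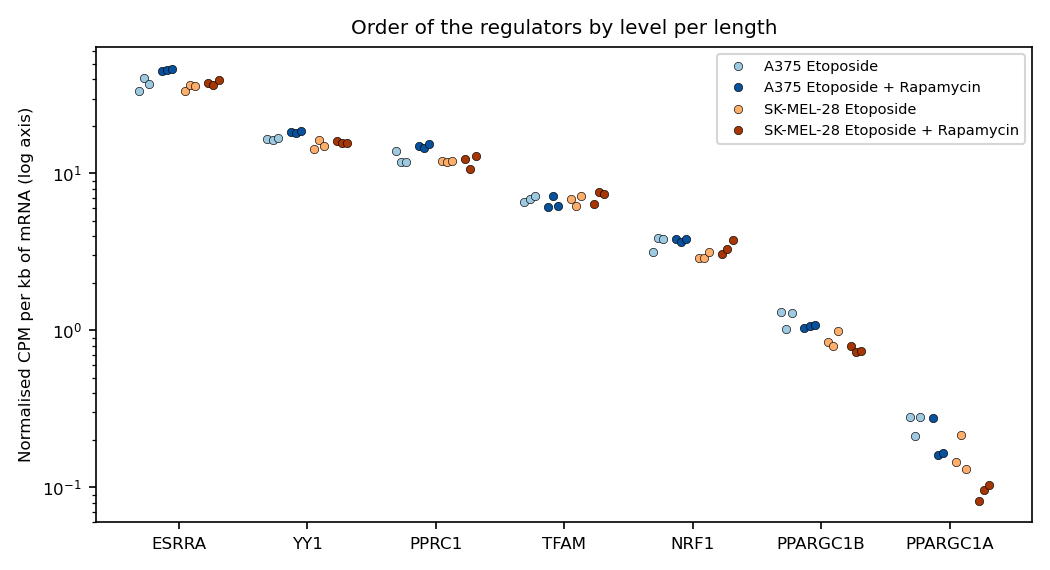
Level of each regulator in CPM per kilobase of its MANE Select transcript (log axis), 1 point per library, coloured by group. The order from ESRRA at the left to PPARGC1A at the right is the same in all 4 groups, and PPARGC1A spans the widest range, from 0.0821 to 0.281.

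With rapamycin added to etoposide, 3 of the 7 members rose in A375, and no member passed the test in SK-MEL-28. In A375, ESRRA rose 1.24-fold, PPRC1 1.20-fold and YY1 1.11-fold, while PPARGC1A, PPARGC1B, NRF1 and TFAM did not pass the test. Of all 18844 genes tested in A375, 28.1% passed (edgeR quasi-likelihood test, adjusted p under 0.05), 14.3% as higher and 13.8% as lower. The 3 members past the test in edgeR were 3 higher and 0 lower. No further member reached an unadjusted p under 0.05, and DESeq2 also called 0 lower. In SK-MEL-28, 19% of 18897 genes passed, 8.83% higher and 10.1% lower, against 0 of the 7 members with edgeR and 0 with DESeq2, and 1 member had an unadjusted p under 0.05. With the study's further requirement of a fold change over 1.5, 5.89% of genes passed in A375 and 4.99% in SK-MEL-28, and 0 members did in either line with edgeR. The study describes its RNA-seq replicates as biological, and p-values measure the spread between them.

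**Figure D2:**
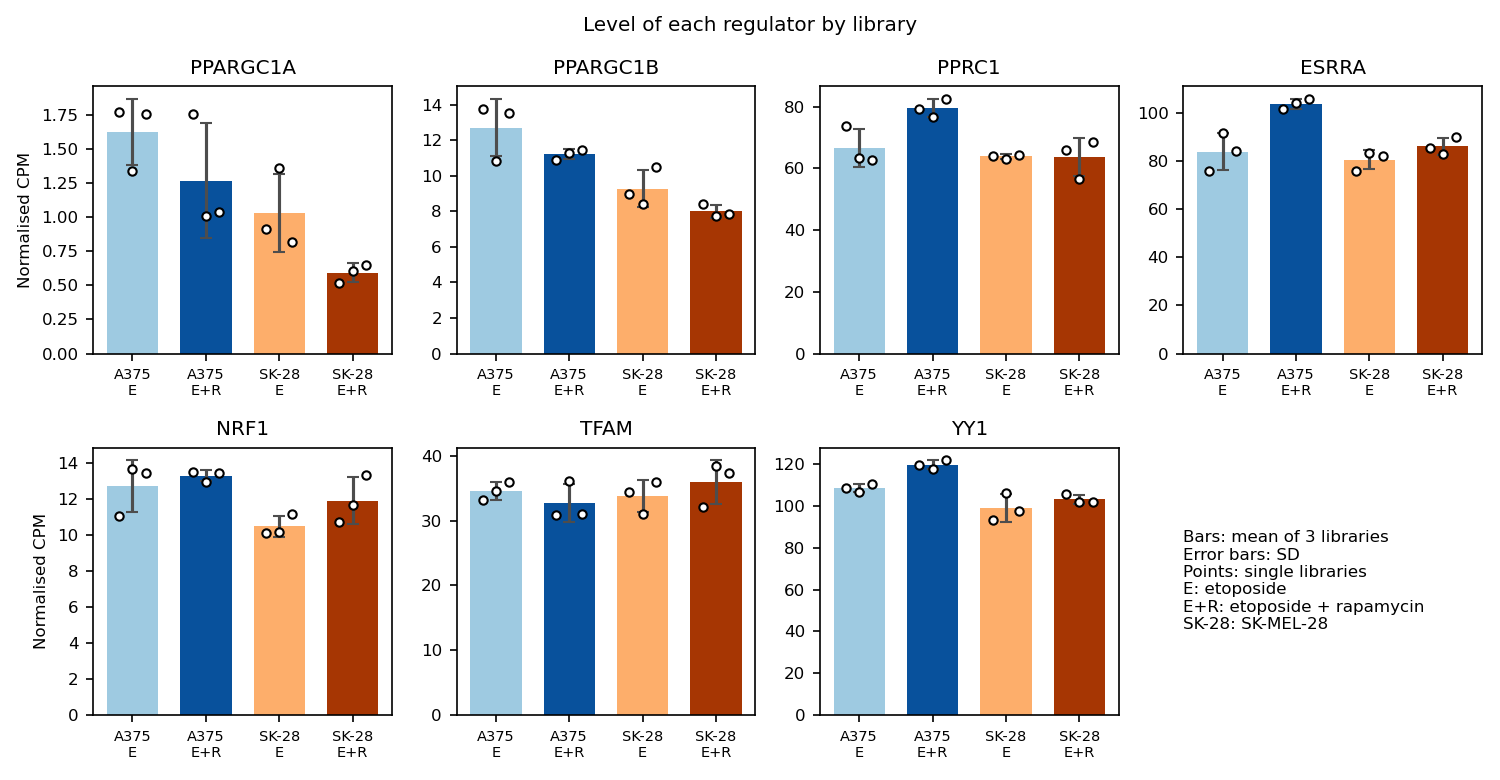
Normalised CPM of each regulator in the 12 libraries, with a separate axis from 0 for each gene. Bars are means of 3 libraries, error bars are SD and points are libraries. In A375 the etoposide + rapamycin libraries of PPRC1, ESRRA and YY1 lie above all etoposide libraries, and in SK-MEL-28 those of PPARGC1A and PPARGC1B lie below.

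Among the coactivators, PPARGC1A, the founding member and the one induced by cold, fasting and exercise in oxidative tissue, was scarcely expressed. It held 54, 39 and 50 counts in the A375 libraries with etoposide and 50, 30 and 31 with etoposide + rapamycin. The treatments overlapped in A375, where the log2 fold change was -0.35 (SE 0.29, 95% interval -0.98 to 0.28, adjusted p = 0.411). In SK-MEL-28 it held 28, 41 and 27 counts with etoposide and 16, 17 and 20 with both drugs, so that all 3 libraries with rapamycin were lower. Its level there was 1.03 ± 0.29 against 0.591 ± 0.068 CPM (SD, n = 3), and the log2 fold change was -0.80 (SE 0.35, 95% interval -1.55 to -0.050) with an adjusted p of 0.132 in the edgeR test, which missed the threshold. PPARGC1A had the largest SE of the 7 members in both lines.

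PPARGC1B, the PGC1β coactivator, partners ERRα and shares most of the mitochondrial program of PGC1α. Its levels in A375 were 13.8, 10.9 and 13.6 CPM with etoposide and 10.9, 11.3 and 11.4 CPM with etoposide + rapamycin. The ranges overlapped, and the log2 fold change was -0.18 (SE 0.11, adjusted p = 0.272). In SK-MEL-28 the levels were 8.96, 8.44 and 10.5 CPM with etoposide and 8.43, 7.72 and 7.87 CPM with both drugs. All 3 libraries with rapamycin were below the 3 without, though the nearest, at 8.43 and 8.44 CPM, almost touched, and the log2 fold change was -0.22 (SE 0.12, adjusted p = 0.237). PPARGC1A and PPARGC1B were the 2 of 7 members whose groups did not overlap in SK-MEL-28, where 35.9% of all genes tested showed no overlap.

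PPRC1 passed the test as higher in A375. Its levels were 73.7, 63.4 and 62.8 CPM with etoposide and 79.4, 76.8 and 82.6 CPM with etoposide + rapamycin. Every library with rapamycin was above the etoposide libraries, and the log2 fold change was 0.26 (SE 0.065, 95% interval 0.12 to 0.40, adjusted p = 0.00983). Without A375 library 3 with both drugs the log2 fold change was 0.23 and the adjusted p 0.0526. In SK-MEL-28 the levels were 64.2, 63.0 and 64.4 CPM with etoposide and 65.8, 56.6 and 68.5 CPM with both drugs. There the libraries with rapamycin lay on both sides of the others, and the log2 fold change was -0.0074 (95% interval -0.15 to 0.14, adjusted p = 0.956).

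ESRRA encodes ERRα, an orphan receptor that is the main DNA-binding partner of PGC1 proteins on oxidative phosphorylation genes. Its A375 levels were 76.0, 91.7 and 84.2 CPM with etoposide and 101.6, 104.1 and 105.8 CPM with etoposide + rapamycin. The groups did not overlap, and the log2 fold change was 0.31 (SE 0.063, 95% interval 0.18 to 0.45, adjusted p = 0.00274), the largest rise among the 7 members. ESRRA passed the test in A375 in all 9 other settings that keep every library and without each of the 6 libraries in turn, with log2 fold changes of 0.25 to 0.38 over the latter. In SK-MEL-28 the levels were 76.0, 83.5 and 82.0 CPM with etoposide and 85.3, 83.1 and 90 CPM with both drugs. Those ranges overlapped slightly, with a log2 fold change of 0.095 (95% interval -0.023 to 0.21, adjusted p = 0.258). TRMT112, which overlaps ESRRA on the other strand, had a log2 fold change of 0.051 in A375 (adjusted p = 0.602) and 0.12 in SK-MEL-28 (adjusted p = 0.285). How reads of the overlap were divided between both genes is not given in the sources used here.

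NRF1, nuclear respiratory factor 1, binds promoters of respiratory chain genes and of TFAM. Its levels in A375 were 11.1, 13.6 and 13.5 CPM with etoposide and 13.5, 12.9 and 13.5 CPM with etoposide + rapamycin, with a log2 fold change of 0.069 (95% interval -0.16 to 0.30, adjusted p = 0.676). In SK-MEL-28 they were 10.1, 10.2 and 11.2 CPM with etoposide and 10.7, 11.7 and 13.3 CPM with both drugs. The ranges overlapped in both lines, and the log2 fold change in SK-MEL-28 was 0.18 (95% interval -0.062 to 0.42, adjusted p = 0.30).

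TFAM had the narrowest spread of group means of all 7 members, 0.13 log2 units between the highest and the lowest group. Its levels in A375 were 33.2, 34.6 and 36.0 CPM with etoposide and 30.9, 36.2 and 31.1 CPM with etoposide + rapamycin. In SK-MEL-28 they were 34.5, 31.0 and 35.9 CPM with etoposide and 32.1, 38.4 and 37.4 CPM with both drugs. The treatments overlapped in both lines. The log2 fold change was -0.075 in A375 (95% interval -0.24 to 0.094, adjusted p = 0.526) and 0.085 in SK-MEL-28 (95% interval -0.096 to 0.27, adjusted p = 0.537). Neither interval reached beyond 0.27 log2 units.

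YY1, a zinc finger factor that activates or represses depending on its partners, rose in A375 by the smallest amount that passed. Its levels there were 108.4, 106.7 and 110.6 CPM with etoposide and 119.4, 117.7 and 121.8 CPM with etoposide + rapamycin. The libraries within each group lay close together and the groups did not overlap, with a log2 fold change of 0.15 (SE 0.043, 95% interval 0.051 to 0.24, adjusted p = 0.0248). The call was lost with library totals in place of TMM scaling (log2 fold change 0.10, adjusted p = 0.109), with the replicate number as a block (log2 fold change 0.15, adjusted p = 0.0693), and without A375 library 1 or 3 with both drugs (adjusted p = 0.0748 and 0.0975) or library 2 with etoposide (adjusted p = 0.0742). In SK-MEL-28 the levels were 93.1, 106.0 and 97.6 CPM with etoposide and 105.5, 102.0 and 101.8 CPM with both drugs, which overlapped (log2 fold change 0.057, 95% interval -0.065 to 0.18, adjusted p = 0.538). PPRC1, ESRRA and YY1 were the 3 of 7 members whose groups did not overlap in A375, where 42.6% of all genes tested showed no overlap.

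Whether the lines responded differently was tested as an interaction over all 12 libraries. Of 20101 genes 5.62% passed, and 0 of the 7 members passed with edgeR or with DESeq2, while 2 had an unadjusted p under 0.05. These were PPRC1, whose response in SK-MEL-28 minus that in A375 was -0.26 log2 units (SE 0.10, 95% interval -0.48 to -0.046, adjusted p = 0.150), and ESRRA, with -0.21 (SE 0.088, 95% interval -0.40 to -0.021, adjusted p = 0.193). A rise past the test in A375 alone is therefore not shown to differ from the response in SK-MEL-28 for any member. Without A375 library 1 with etoposide, the difference for PPRC1 was -0.35 with an adjusted p of 0.0347. The interval of the difference was widest for PPARGC1A, from -1.36 to 0.49, and for YY1 it ran from -0.23 to 0.069.

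**Figure D3:**
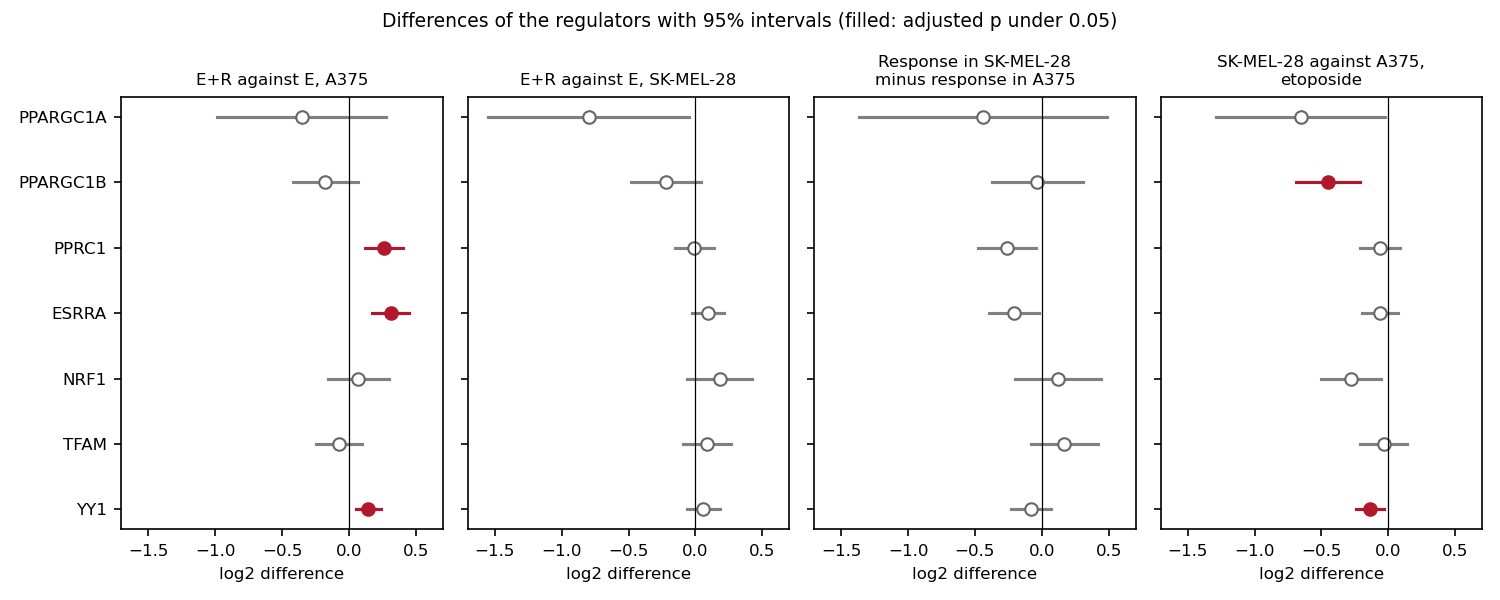
Log2 differences of the 7 regulators in 4 comparisons, with 95% intervals from the edgeR fits. E is etoposide and E+R etoposide + rapamycin, and filled points have an adjusted p under 0.05. PPRC1, ESRRA and YY1 are filled in A375, no point is filled in SK-MEL-28 or for the difference in response, and PPARGC1B and YY1 are filled for the lines.

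Under etoposide, SK-MEL-28 held less of 2 members than A375. This comparison shares its etoposide libraries with both rapamycin comparisons. PPARGC1B was at 9.29 ± 1.06 CPM in SK-MEL-28 and 12.7 ± 1.6 CPM in A375 (SD, n = 3), a log2 difference of -0.45 (SE 0.11, 95% interval -0.69 to -0.21, adjusted p = 0.00502). YY1 was at 98.9 ± 6.5 against 108.6 ± 2.0 CPM (SD, n = 3), a log2 difference of -0.14 (SE 0.050, 95% interval -0.24 to -0.030, adjusted p = 0.0470). Of all 20101 genes, 31.8% passed, 15.1% higher and 16.7% lower in SK-MEL-28, and 43.3% did not overlap between the lines, as was the case for PPARGC1B and YY1. PPARGC1B passed in each of the 9 settings with every library and without each of the 12 libraries, whereas YY1 passed in 1 of those 9 settings and without 1 of the 12 libraries, with adjusted p-values of 0.0104 to 0.194.

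PPARGC1A and NRF1 also had unadjusted p-values under 0.05 for the line difference without passing after adjustment. PPARGC1A had a log2 difference of -0.66 (SE 0.30, adjusted p = 0.110) and NRF1 of -0.28 (SE 0.11, adjusted p = 0.0576). NRF1 passed without A375 library 1 with etoposide (log2 difference -0.36, adjusted p = 0.0199) and without SK-MEL-28 library 3 with both drugs (adjusted p = 0.0495). ESRRA, PPRC1 and TFAM had log2 differences of -0.061, -0.062 and -0.033, each with an interval that held 0.

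The nuclear factors that PGC1 proteins work with moved in both directions. Of 19 tested in A375, 3 rose and 5 fell, with a median log2 fold change of -0.14, and of 20 tested in SK-MEL-28, 1 rose and 3 fell, with a median of -0.074. Over all genes tested the median was -0.0051 (A375) and 0.0053 (SK-MEL-28), and 28.1% passed in A375 and 19% in SK-MEL-28. MITF, the melanocyte master factor that activates PPARGC1A, fell in both lines, with a log2 fold change of -0.51 (SE 0.10, adjusted p = 0.00248) in A375 and -0.50 (SE 0.097, adjusted p = 0.00320) in SK-MEL-28. Its levels went from 18.2 to 20.9 CPM down to 12.2 to 14.3 CPM in A375, and from 26.6 to 29.7 down to 18 to 22.9 CPM in SK-MEL-28, without overlap. PPARG, the adipogenic receptor, fell in both lines (-0.35 and -0.29), and GABPB1, a subunit of the GABP factor, rose in both (0.24 and 0.26). When each library was left out in turn, the A375 calls of MITF, PPARG, ATF2, MEF2A and GABPB1 and the SK-MEL-28 call of MITF held. The A375 count of risen factors was 1 without combination library 1 or 3 (those given both drugs) or etoposide library 3. In SK-MEL-28 the count of fallen factors was 1 without etoposide library 2 or 3, and that of risen factors was 0 without combination library 2 or 3 or etoposide library 1 or 2 and 2 without combination library 1. With a minimum of 1 count in any library, 1 factor rose in A375, and 0 rose and 1 fell in SK-MEL-28, where 0 also rose with library totals. The SK-MEL-28 call of PPARG was lost without combination library 3 or any 1 of the etoposide libraries (adjusted p = 0.0516 to 0.115).

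The DNA-binding subunit GABPA fell in A375 (log2 fold change -0.28, adjusted p = 0.0211) and had a log2 fold change of -0.027 in SK-MEL-28 (adjusted p = 0.804). ATF2, a stress-activated factor that acts at the PPARGC1A promoter, fell in A375 (-0.46, adjusted p = 0.00156), and FOXO1, an insulin-restrained factor that PGC1α coactivates, fell in SK-MEL-28 (-0.34, adjusted p = 0.0234). The fall of GABPA was lost without A375 combination library 1 or 3 or etoposide library 3 (adjusted p = 0.0884 to 0.0974), and that of FOXO1 without SK-MEL-28 combination library 2 or etoposide library 2 or 3 (adjusted p = 0.0728 to 0.0946). ESRRG, another ERR gene relevant to mitochondria, was barely expressed, with group means of 0.169 to 0.468 CPM, and was not tested in A375. In SK-MEL-28 its log2 fold change was -0.80 (adjusted p = 0.277). For the difference between the lines' responses, 0 of 20 factors passed with edgeR or DESeq2, and 5 had an unadjusted p under 0.05, while 1 passed without A375 combination library 2 and 1 without A375 etoposide library 1.

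Among 23 modifiers, coactivators and corepressors that act on PGC1 proteins, 3 rose and 6 fell in A375 and 1 rose and 3 fell in SK-MEL-28. The medians were -0.010 and -0.090, and of all genes tested 28.1% passed in A375 and 19% in SK-MEL-28. NRIP1, which encodes the corepressor RIP140 that opposes PGC1 proteins, fell in A375 (-0.36, adjusted p = 0.000325) and in SK-MEL-28 (-0.25, adjusted p = 0.0305). MYBBP1A, a repressor that binds PGC1α, rose in both (0.38 and 0.16), and RNF34, a ubiquitin ligase for PGC1α, fell in both (-0.31 and -0.37). MED1, the Mediator subunit through which PGC1α reaches the polymerase, fell in SK-MEL-28 (-0.21, adjusted p = 0.0306). SIRT1, the deacetylase that activates PGC1α, had log2 fold changes of -0.13 (adjusted p = 0.496) and 0.0082 (adjusted p = 0.969). For the difference in response, 0 of 23 passed with edgeR, 2 had an unadjusted p under 0.05 and DESeq2 called 1, and 2 passed without A375 etoposide library 1. The A375 calls of NRIP1, MYBBP1A and RNF34 and the SK-MEL-28 call of RNF34 held without each library. In A375, 1 rose and 3 fell without etoposide library 3, 7 rose without etoposide library 1 and 2 fell without combination library 1. In SK-MEL-28, 0 rose with library totals or a minimum of 1 count in any library, and 1 fell with the latter. There the rise of MYBBP1A was lost without each of the combination libraries in turn and without etoposide library 1 or 3, 1 modifier fell without combination library 2 or etoposide library 1, the call of NRIP1 was lost without combination library 2 or 3 or etoposide library 1 or 3, and that of MED1 without combination library 1 or 2 or etoposide library 1.

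Genes of mitochondrial DNA transcription and replication, which work beside TFAM, moved in both directions in A375. Of 19 tested, 5 rose and 2 fell (median log2 fold change -0.066), whereas with library totals in place of TMM scaling 3 rose and 6 fell and with 1 fit of all 12 libraries 4 rose and 4 fell. In A375, 3 rose with a minimum of 1 count in any library and 3 with the replicate number as a block. In SK-MEL-28, 1 rose and 0 fell with edgeR or DESeq2 (median 0.053), with 1 at an unadjusted p under 0.05 among those lower, and 2 rose with the fit of all 12 libraries. TOP1MT, the mitochondrial topoisomerase I, rose in both lines. Its levels were 31.3 to 32.9 CPM against 43.1 to 51.0 CPM in A375 (log2 fold change 0.58, SE 0.071, adjusted p = 9.23e-05) and 25.7 to 32.5 against 37.3 to 38.5 CPM in SK-MEL-28 (0.39, SE 0.085, adjusted p = 0.00579), and both calls held without each library. In A375, 3 rose without combination library 3 or etoposide library 3, 1 fell without combination library 1 or 2, and 0 fell without etoposide library 3. In SK-MEL-28, 1 fell without combination library 1.

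In A375 the replicative helicase TWNK (0.30, adjusted p = 0.000941), the polymerase POLG (0.30, adjusted p = 0.00466) and the mitochondrial RNA polymerase POLRMT (0.22, adjusted p = 0.0357) rose. The calls of TWNK and POLG held without each library, and that of POLRMT was lost without combination library 2 or 3 or etoposide library 3 (adjusted p = 0.0985 to 0.154). TFB2M, the partner of POLRMT and TFAM at mitochondrial promoters, had log2 fold changes of -0.10 in A375 (adjusted p = 0.157) and 0.11 in SK-MEL-28 (adjusted p = 0.203). POLRMT had a log2 fold change of -0.11 in SK-MEL-28 (adjusted p = 0.220). For the difference in response 0 of the 19 passed with edgeR, 8 had an unadjusted p under 0.05, and DESeq2 and a filter of 10 counts in every library each called 2. Without A375 etoposide library 1, 2 passed, and without SK-MEL-28 etoposide library 1 or combination library 1, 1 passed.

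Nuclear-encoded mitochondrial targets of these regulators fell more often than they rose in both lines. Of 30 tested, 2 rose and 12 fell in A375, with a median log2 fold change of -0.11. In SK-MEL-28, 9 fell with edgeR, 12 with DESeq2 and 15 with library totals in place of TMM scaling, and 0 rose in each, with a median of -0.14 and 1 gene higher at an unadjusted p under 0.05. ATP5F1B and ATP5MC1, subunits of the ATP synthase, TOMM70, an import receptor, and PDK4, the kinase that blocks pyruvate entry into the cycle, fell in both. PDK4 went from 27.8 to 31.5 CPM down to 16.4 to 20.7 CPM in A375 (log2 fold change -0.64, adjusted p = 0.000446) and from 17.2 to 20.4 down to 13.7 to 17.2 CPM in SK-MEL-28 (-0.35, adjusted p = 0.0384). The SK-MEL-28 call of PDK4 was lost without combination library 2 or 3 or etoposide library 1 or 3 (adjusted p = 0.120 to 0.147), that of TOMM70 without combination library 1 or 3 or etoposide library 1 or 3, and that of ATP5F1B without each library but etoposide library 1. Without combination library 3, 7 targets fell in A375 and 5 in SK-MEL-28. In A375, 1 target rose without each of the combination libraries in turn, without etoposide library 3, and with library totals, a minimum of 1 count in any library or the replicate number as a block.

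The antioxidant gene PRDX3 (-0.38, adjusted p = 0.000647) and ALAS1, which starts haem synthesis (-0.27, adjusted p = 0.00101), fell in A375. In SK-MEL-28, ATP5MC1 (-0.36, adjusted p = 0.00128) and SDHA, the flavoprotein of complex II (-0.30, adjusted p = 0.00197), fell. CYCS, which encodes cytochrome c, had log2 fold changes of -0.15 (adjusted p = 0.0841) and -0.26 (adjusted p = 0.0507). The call of ATP5MC1 in A375 was lost without combination library 2 or 3 or etoposide library 1 or 2 (adjusted p = 0.0696 to 0.103). The share of targets past the test as lower was 12 of 30 in A375, where 13.8% of all genes passed as lower, and 9 of 30 in SK-MEL-28, where 10.1% did.

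UCP2, an inner membrane carrier, had the largest change with rapamycin in the list, and it was in SK-MEL-28. Its levels in SK-MEL-28 fell from 6.96 to 8.04 CPM with etoposide to 2.13 to 3.09 CPM with both drugs (log2 fold change -1.5, SE 0.16, adjusted p = 4.07e-05). In A375 they were 3.54 to 4.33 CPM and 2.70 to 3.96 CPM, which overlapped (-0.17, adjusted p = 0.544).

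**Figure D4:**
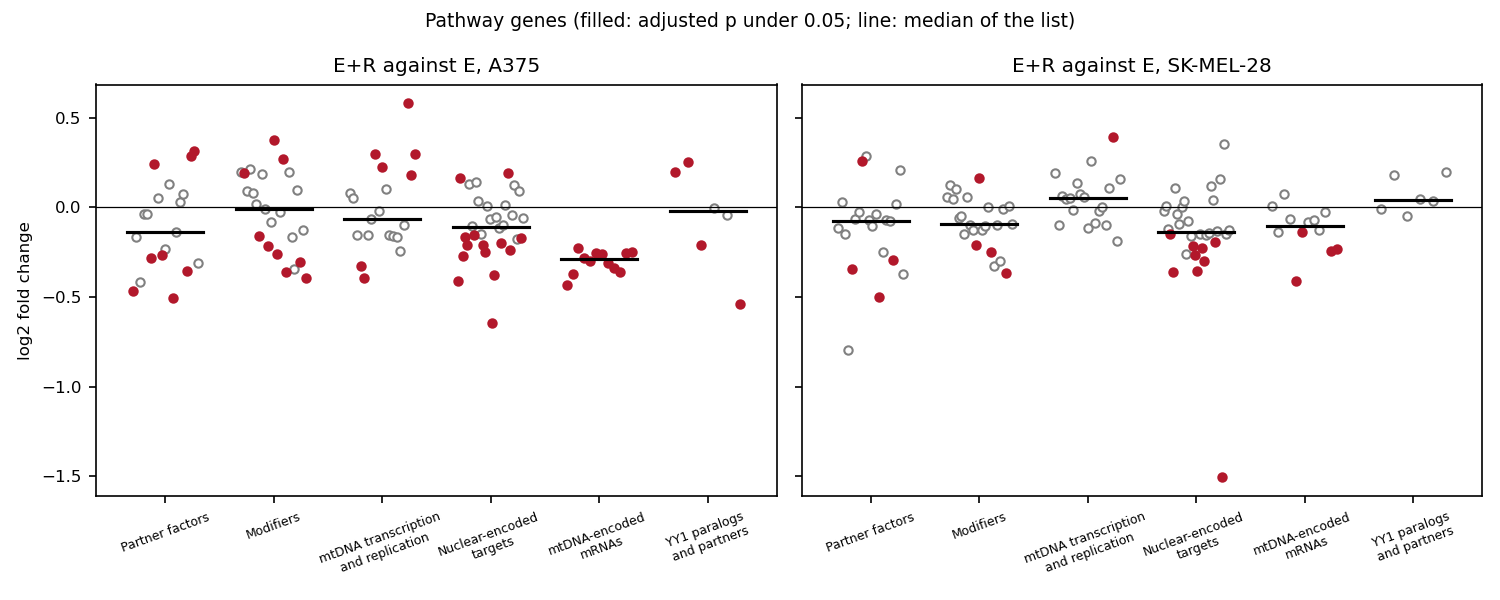
Log2 fold changes of etoposide + rapamycin against etoposide for the genes of 6 lists in A375 (left) and SK-MEL-28 (right). Each point is a gene, filled points have an adjusted p under 0.05, and the black line is the median of the list. In A375 all 12 mitochondrially encoded mRNAs are filled and below 0.

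The mRNAs encoded by mitochondrial DNA, whose transcription TFAM, TFB2M and POLRMT carry out, fell in A375 while TFAM itself did not pass the test. Of 12 tested, 12 fell in A375, with log2 fold changes of -0.43 to -0.23 (median -0.29). Of all genes tested, 13.8% passed as lower in A375 and 10.1% in SK-MEL-28. In SK-MEL-28, 4 fell, with a median of -0.10, and 0 rose with edgeR or DESeq2, with 1 higher at an unadjusted p under 0.05. All 13 together made up 4.08% ± 0.16 of the counts in A375 with etoposide and 3.22% ± 0.12 with etoposide + rapamycin (SD, n = 3). In SK-MEL-28 they made up 4.53% ± 0.21 and 4.26% ± 0.05. The A375 libraries ranged from 3.93% to 4.25% with etoposide and from 3.08% to 3.32% with both drugs, and the SK-MEL-28 libraries from 4.37% to 4.76% and from 4.23% to 4.31%, without overlap in either line.

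MT-ATP6, a subunit of the ATP synthase, fell most in A375 (-0.43, SE 0.053, adjusted p = 0.000102) and had a log2 fold change of 0.0084 in SK-MEL-28 (adjusted p = 0.909). MT-ND5, MT-ND6, MT-CO3 and MT-CYB fell in both lines. In SK-MEL-28 the changes were -0.41 for MT-CO3 (adjusted p = 0.000117), -0.24 for MT-ND5 (adjusted p = 0.0163) and -0.14 for MT-CYB (adjusted p = 0.0231). Of these, the call of MT-CO3 held without each library. That of MT-CYB was lost without combination library 1 or 3 or etoposide library 1 or 3 (adjusted p = 0.0541 to 0.118), that of MT-ND5 without combination library 2 or 3 (adjusted p = 0.0558 and 0.0659), and that of MT-ND6 without each of the combination libraries in turn and without etoposide library 1. The count of fallen mRNAs in SK-MEL-28 was 1 without combination library 3 and 2 without combination library 1 or etoposide library 1, and 1 rose without combination library 2 or etoposide library 1. With edgeR, 1 also rose there with a filter of 10 counts in every library, with halved counts or with the replicate number as a block, and 1 fell with a minimum of 1 count in any library. MT-CO1 was at 11320 to 11930 CPM with etoposide and 12240 to 12420 CPM with both drugs in SK-MEL-28, without overlap (log2 fold change 0.078, adjusted p = 0.0535). The difference in response passed for 4 of the 12, each of which fell in A375 and did not pass the test in SK-MEL-28. The response in SK-MEL-28 minus that in A375 was positive in each, among them MT-CO1 (0.31) and MT-ATP6 (0.45). It passed for 8 without SK-MEL-28 etoposide library 1. Of the 4, the call of MT-CO2 was lost without 9 of the 12 libraries (adjusted p = 0.0519 to 0.130), with a minimum of 1 count in any library (adjusted p = 0.0755) and with the replicate number as a block (adjusted p = 0.0947), and the other three held without each library. The row of MT-ND4 held at most 7 counts in a library, while that of MT-ND4L, which overlaps it, held up to 267905. How reads of the overlap were divided is not given in the sources used here, and MT-ND4 was not tested. MT-ATP6, MT-ATP8 and MT-CO3 also share an assembled locus, and how its reads were divided between them is likewise not given. Their separate changes, among them those of MT-CO3 and MT-ATP6 in SK-MEL-28, carry that limit. Whether strand was used is not given either. Reads from RNA of the opposite strand may therefore be held in these rows, among them that of MT-ND6.

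**Figure D5:**
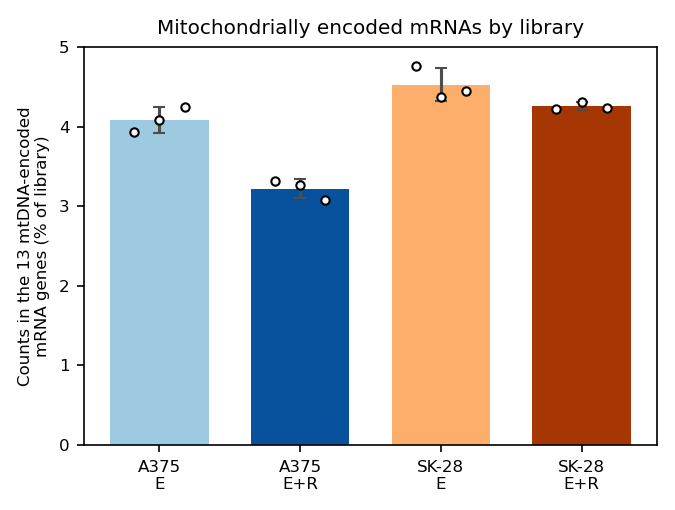
Counts in the 13 genes for mitochondrially encoded mRNAs as a percentage of each library. Bars are means of 3 libraries, error bars are SD and points are libraries, with E for etoposide and E+R for etoposide + rapamycin. The A375 mean is 4.08% with etoposide and 3.22% with both drugs, and the SK-MEL-28 means are 4.53% and 4.26%.

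Of 6 paralogs and partners of YY1, 2 rose and 2 fell in A375 (median log2 fold change -0.022), and 0 passed in SK-MEL-28 with edgeR or DESeq2 (median 0.041), where 1 had an unadjusted p under 0.05. ZFP42, a YY1 relative better known as the stem cell factor REX1, fell in A375 (-0.54, SE 0.089, adjusted p = 0.000749), from 18.8 to 21.2 CPM down to 13.5 to 14.2 CPM. INO80, the remodelling ATPase that works with YY1 (0.20, adjusted p = 0.0245), and RING1, a Polycomb protein (0.25, adjusted p = 0.0175), rose in A375. With library totals 1 rose, with a minimum of 1 count in any library 0 rose and 1 fell, and with the replicate number as a block 1 fell. Of all genes tested, 28.1% passed in A375 and 19% in SK-MEL-28. Only the call of ZFP42 held without each library. Both rises were lost without combination library 1 or 3 or etoposide library 3, INO80 was lost without etoposide library 2 and RING1 without etoposide library 1, and the fall of RYBP (-0.21) without combination library 2 or 3 or etoposide library 2 or 3.

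Between the lines under etoposide, the lists differed in how many genes passed. Of all genes tested, 31.8% passed, 15.1% as higher and 16.7% as lower in SK-MEL-28. Among the nuclear factors 5 of 20 were higher and 6 lower in SK-MEL-28 (median log2 difference -0.12), with log2 differences of 0.73 for PPARG, 0.53 for RXRA and -0.95 for FOXO1. Among the modifiers 4 were higher and 3 lower (median -0.014), with a log2 difference of -1.0 for NRIP1, 0.36 for the acetyltransferase KAT2A and 0.23 for MED1. Of the mitochondrial DNA genes 2 were higher and 1 lower (median 0.024), with TFB1M at 0.58, TWNK at 0.15 and TFB2M at -0.35. Without SK-MEL-28 etoposide library 1, 1 modifier was higher and 1 lower, and without its etoposide library 2, 1 modifier was lower. The number of higher mitochondrial DNA genes was 1 without 8 of the 12 libraries and with a minimum of 1 count in any library, the replicate number as a block or the 6 etoposide libraries alone, and 2 were lower without SK-MEL-28 etoposide library 2. The call of TWNK was lost without 10 of the 12 libraries (adjusted p up to 0.165) and that of MED1 without A375 etoposide library 2 or SK-MEL-28 etoposide library 1.

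The nuclear-encoded targets were higher in SK-MEL-28 for 10 of 30 and lower for 5 (median 0.074). SOD2, the manganese superoxide dismutase, differed most, with a log2 difference of -2.94 (SE 0.059, adjusted p = 9.30e-16), and the fusion gene MFN1 (0.63) and the citrate synthase gene CS (0.34) were higher. The mitochondrially encoded mRNAs were higher for 9 of 12 and lower for 0 with edgeR or DESeq2, 0 also at an unadjusted p under 0.05 (median 0.19). They were led by MT-ND5 (0.32), MT-ATP6 (0.24) and MT-ND6 (0.30), with the limits on reads of these rows given above. Of the YY1 list 3 of 6 were lower (median -0.22), ZFP42 by a log2 difference of -2.29, YY1AP1 of -0.28 and RING1 of -0.28. The median over all genes tested was -0.0045.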

How the data were processed

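RNA was extracted from A375 and SK-MEL-28 cells under etoposide or etoposide + rapamycin, with 3 polyA-selected libraries per group. Reads were aligned by the authors with HISAT (GRCh38), and StringTie with an Ensembl annotation gave expression by gene. The table the authors deposited holds raw counts as whole numbers, neither normalized nor pooled. How coverage became counts and whether strand was used are not given in the sources used here, so a count is not taken as 1 read and precision rests on the spread between libraries. Of 58312 rows, 5 named no gene (0.00099% to 0.0053% of a library's counts) and were left out. Another 1892 rows share a name and were kept apart.

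Each line was tested alone with edgeR 4.0.16 in R 4.3.3 (filterByExpr with a minimum count of 10, TMM, glmQLFit and glmQLFTest, two-sided), etoposide + rapamycin against etoposide. A fit of all 12 libraries gave the difference between the responses and the difference between the lines under etoposide. P-values were adjusted by Benjamini-Hochberg over all genes tested, with calls at an adjusted p under 0.05. SE was derived from the log2 fold change and the F statistic (their absolute value over the root of F), and intervals are 95%. Levels are CPM with 1 TMM scaling over 12 libraries. Levels per kilobase divide by the MANE Select length. Promoters are from RefSeq (GRCh38.p14), and motifs were searched on both strands. The tests were tested on simulated data.

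The members and the gene lists were chosen with earlier results of these data known. Named are every member, the 3 genes per list and comparison with the smallest p among those past the test, genes called in both lines, and POLRMT, TFB2M, GABPA, ESRRG, MITF, SIRT1 and CYCS. The genes called in both lines, MEF2A, RYBP and MT-CO2 were named after their values were seen. Results were recomputed with DESeq2 1.42.0, with DESeq2 size factors in edgeR, library totals, 2 other count filters, the replicate number as a block, halved counts, rows of one name summed, other samples in the fit, a fold change over 1.5, and each library left out in turn.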

Additional observations from a re-analysis of the deposited data

Results flagged for a closer look

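None of the 7 regulators met a rule for a closer look. Of the genes around them, 7 were picked out because the rapamycin response differed between the lines in the interaction test of edgeR. For UCP2 the response in SK-MEL-28 minus that in A375 was -1.32 log2 units (SE 0.25, adjusted p = 0.00484), with means of 3.88 and 3.42 CPM in A375 and 7.39 and 2.61 CPM in SK-MEL-28 without and with rapamycin. For the fatty acid oxidation gene ACADM it was 0.40 (SE 0.098, adjusted p = 0.0250), with means of 31.7 and 23.8 CPM in A375 and 36.0 and 35.6 CPM in SK-MEL-28. The call of ACADM was lost without 8 of the 12 libraries, with adjusted p-values of 0.0505 to 0.0754. These were A375 libraries 1 and 3 and SK-MEL-28 libraries 1 and 2 with both drugs, and libraries 2 and 3 of each line with etoposide. It missed the threshold in 10 of 20 alternatives.

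Among the mitochondrially encoded mRNAs the difference was 0.31 for MT-CO1 (SE 0.048, adjusted p = 0.00113), 0.45 for MT-ATP6 (SE 0.070, adjusted p = 0.00143) and 0.34 for MT-ND4L (SE 0.060, adjusted p = 0.00338). All 3 passed under the 20 alternatives. MT-ATP6 shares an assembled locus with MT-CO3 and MT-ATP8, and MT-ND4L with MT-ND4. How the reads of these loci were divided is not given in the sources used here. For MT-CO2 it was 0.23 (SE 0.060, adjusted p = 0.0358), with means of 3755 and 3081 CPM in A375 and 4131 and 3964 CPM in SK-MEL-28, and it missed the threshold in 11 of 20 alternatives, 9 of them the loss of 1 library. For ZFP42 the difference was 0.75 (SE 0.15, adjusted p = 0.00839), with means of 20.3 and 13.9 CPM in A375 and 4.14 and 4.76 CPM in SK-MEL-28. Technical and biological explanations of these values were not tested.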

How the results depend on the processing

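Of the member values under alternatives, 461 kept their direction and their side of the threshold, 25 lost a call, 3 gained one and 8 changed sign. In A375, 3 members passed, 1 to 3 without each library in turn, 2 with library totals and 2 with the replicate number as a block, where YY1 was lost (log2 fold change 0.15, adjusted p = 0.0693). With a fold change over 1.5, 0 did. For the difference in response 0 passed, 0 to 1 without each library. For the lines 2 passed, 1 to 2 without each library, and 1 with DESeq2, its size factors, library totals, either other filter, the block, summed names or the 6 etoposide libraries alone, in each case PPARGC1B; 0 did with a fold change over 1.5. Pairing was not supported by the data (same-numbered libraries correlated at -0.030 to 0.021), and the block changed no other member call. The sign changes were of values not past the test and each followed the loss of 1 library. Over the losses of single libraries, NRF1 in A375 ranged from -0.020 to 0.12, PPRC1 in SK-MEL-28 from -0.062 to 0.072, the PPARGC1B difference in response from -0.11 to 0.064, and between the lines PPRC1 from -0.099 to 0.024, ESRRA from -0.12 to 0.013 and TFAM from -0.079 to 0.031. The causes were not tested. Library totals shifted calls in A375 from 2691 higher of 5295 to 2213 of 5577, and in SK-MEL-28 from 1668 of 3582 to 1337 of 3716. Genes called for the difference in response were 1130, against 1736 with DESeq2, 658 with a filter of 1 count and 620 with the block. The lower mitochondrially encoded mRNAs in A375 numbered 12 under all 15 alternatives. PPARGC1A held 16 to 54 counts a library and had the largest SE of the members; the part of depth in it was not tested.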

Other observations

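PPARGC1A was the only member whose 4 group means spanned at least 1 log2 unit (1.35). By the root mean square difference of centred log2 CPM over the 12 libraries, the genes with the most similar pattern were AL021392.1 (0.23), VWA1 (0.24) and ATP2B1 (0.25), among genes with a mean of at least 100 counts. ATP2B1, a plasma membrane calcium pump, went from 145.6 to 106.0 CPM with rapamycin in A375 and from 91.1 to 59.6 CPM in SK-MEL-28. VWA1, an extracellular matrix protein, went from 9.76 to 8.20 and from 6.28 to 3.96 CPM. Likeness was measured across libraries of 4 groups and is a description with no test. PPARGC1A itself held only 16 to 54 counts a library and passed the test in none of the comparisons. The part of counting noise in the likeness was not tested.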
